A study of Mus musculus with 20 samples.

Results

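Oxidative phosphorylation genes encoded in the nucleus and in the mitochondrial genome were followed in RNA-seq of mouse bone marrow-derived macrophages treated with siRNA against Brg1. A gene was a member if its symbol named a subunit of complex I (Nduf a, b, c, s or v with a number), complex II (Sdha to Sdhd), complex III (Uqcr genes and Cyc1), cytochrome c oxidase (Cox4 to Cox8 followed by a, b or c) or ATP synthase (Atp5 genes), or was a protein-coding mt- gene of these complexes. These symbols chose 96 of the 17787 genes in the deposited table, 83 nuclear and 13 mitochondrial, and no measured value entered the choice. A normalised read count of at least 10 in at least 3 libraries was reached by 79 nuclear members and by 13 of 13 mitochondrial members. The nuclear members that passed were 37 of 38 in complex I, 4 of 4 in complex II, 9 of 9 in complex III, 12 of 15 in complex IV and 17 of 17 in complex V. The symbols also took in the pseudogenes and copies Cox7c-ps1, Cox6c2, Ndufa12-ps and Ndufb4c, and Ndufa4 was counted with complex I by its name, although its protein is known as a subunit of cytochrome c oxidase.

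All cells came from the marrow of male C57BL/6J mice, were cleared of erythrocytes, passed over Ficoll and grown into macrophages with L929-conditioned medium; the animals' age was not given in the sources used here. Each culture received 50 nM of a control siRNA or of a Brg1 siRNA, 1 product per arm, for 48 h. During the last 6 h it was given vehicle (ethanol and phosphate-buffered saline), 100 ng/ml lipopolysaccharide (LPS, from the outer membrane of bacteria, which activates macrophages) or 1 µM dexamethasone with LPS (Dex+LPS; dexamethasone is a synthetic glucocorticoid). The groups held 3 libraries each for vehicle and LPS and 4 each for Dex+LPS, 20 in all. The labels did not say whether replicates came from separate animals, so p-values reflect no more than the spread among these libraries, which may be technical. In such bulk samples, fewer cells of a type and less RNA per cell cannot be told apart.

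Oxidative phosphorylation couples the passage of electrons through complexes I to IV of the inner mitochondrial membrane to proton pumping, and complex V, the ATP synthase, uses the proton gradient to make ATP. Complex II is built from nuclear genes alone, while the other complexes combine nuclear subunits with a few core subunits that the mitochondrial genome encodes and that are transcribed inside the organelle as long precursor RNAs. Activated macrophages are known to lean on glycolysis and to repurpose their respiratory chain, and Brg1 (gene symbol Smarca4) is an ATPase of the SWI/SNF family of nuclear chromatin remodellers.

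Depth was 13.69 to 18.71 M reads (M, mega) per library. Smarca4 itself had normalised read counts of 1476, 1538 and 1626 for control siRNA against 365, 358 and 340.2 for Brg1 siRNA in vehicle, a log2 fold change of -2.12 ± 0.08 (SE), with falls of similar size, -2.28 and -2.10, in LPS and Dex+LPS. Of 9 macrophage markers, 9 were detected in every group, with summed values of 304194 to 314841 in control vehicle and 402099 to 411768 in Brg1 vehicle. The macrophage sum was thus higher with Brg1 siRNA, also in LPS (326254 to 345117 against 521248 to 535343) and Dex+LPS (330191 to 366866 against 446940 to 457250), and its part in the results below was not tested. Neutrophil markers (7 of 7 in the table) summed to at most 144.6 in any library. The highest sums were 25.95 for B lymphocytes (3 markers), 18.17 for T and NK lymphocytes (2) and 37.2 for dendritic cells (6). They were 2.39 for erythroid cells (1) and 11.37 for fibroblasts (2). Mast cell and basophil markers (2) ranged from 0 to 167.1, nearly all of it Kit (up to 167.1), with Cpa3 at most 2.03.

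Some libraries stood apart, and they bear on the members more than on most genes. In 4 libraries (control LPS replicate 3, Brg1 LPS replicate 2, and replicate 4 of the control and of the Brg1 Dex+LPS group) the sample description carried a number from a higher series than in the other 16; what that number stands for was not given in the sources used here. In these 4 libraries, 10 of 13 mitochondrial members (76.9%) lay below every other library of their own group, against 8.06% of all genes tested. Cyc1, the cytochrome c1 subunit of complex III, showed the reverse. It had 602, 573, 459.9 and 537 in these libraries and 20.1 to 176.5 in the other 16. Atp5d, Ndufa2, Atp5e, Ndufb7, Uqcrq and Uqcr10 also lay above the other 16. Of the 79 nuclear members, 12 (15.2%) lay above every other library of their own group, against 7.73% of all genes. Another 11 (13.9%) lay below, against 8.06%. Leaving these 4 libraries out left 2 in each LPS group and 3 in each Dex+LPS group. Control Dex+LPS replicate 2 also stood apart: the summed value of the nuclear members was 100911 there and 81374 to 82671 in the other 3 libraries of its group. Where the call of a member named below was lost without the higher number series or without control Dex+LPS replicate 2, this is said beside it.

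Most mitochondrial genes were more abundant than the nuclear members. Per kilobase of transcript, the normalised value in control vehicle had a median of 11435 over the 13 mitochondrial members and of 672.2 over the 83 nuclear members. Mt-Co1, the catalytic subunit of cytochrome c oxidase, was highest at 62618 ± 5985 per kilobase (SD, n = 3). The lowest mitochondrial member was mt-Nd6, a complex I subunit and the single protein gene read from the opposite strand of the mitochondrial genome, at 113.9 ± 16.7 per kilobase. The highest nuclear member, Atp5b, the catalytic beta subunit of ATP synthase, reached 3979 ± 345 per kilobase. In control vehicle the 13 mitochondrial members took 2.02% ± 0.14 of all reads and the 83 nuclear members 0.602% ± 0.040 (SD, n = 3). Libraries of polyadenylated or of rRNA-depleted RNA can differ in how they capture mitochondrial transcripts; the labels name an mRNA kit and also speak of rRNA depletion.

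In vehicle, the summed mitochondrial members sat lower with Brg1 siRNA, while the nuclear sums overlapped. The summed normalised value of the 13 mitochondrial members was 224492, 257462 and 245887 for control siRNA against 181456, 182936 and 201547 for Brg1 siRNA, 242614 ± 16727 against 188646 ± 11197 (SD, n = 3 each). The 2 groups did not overlap. The sums of the 83 nuclear members were 77842, 69342 and 69332 for control siRNA against 68562, 69694 and 69555 for Brg1 siRNA, which overlapped. The ratio of the mitochondrial to the nuclear sum was 2.88, 3.71 and 3.55 for control siRNA against 2.65, 2.63 and 2.90 for Brg1 siRNA; a Brg1 library, at 2.90, lay above the lowest control, at 2.88. The mitochondrial rRNAs, which are no members, moved with the mitochondrial genes: their summed value was 8253 to 8486 in control vehicle and 6786 to 7270 in Brg1 vehicle. A list read as a sign of RNA quality, of which Malat1, Neat1 and the mitochondrial rRNAs were in the table, moved likewise, with sums of 29446 to 32114 and 22253 to 24583; their part in the result was not tested. Sums over members carry no test here.

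**Figure D1:**
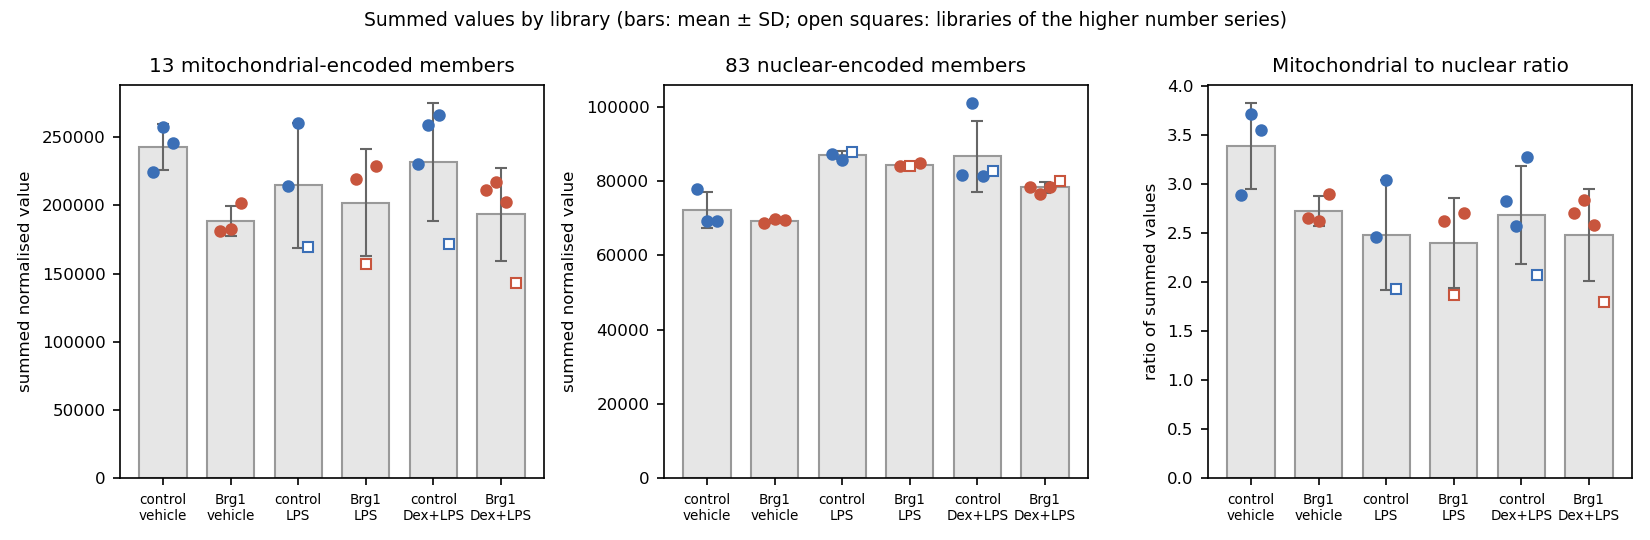
Summed normalised values of the 13 mitochondrial members (left) and the 83 nuclear members (middle) and their ratio (right) in each library of the 6 groups; bars are means with SD, blue marks control and red marks Brg1 siRNA, and open squares are the 4 libraries of the higher number series. The mitochondrial sums of the control vehicle libraries (224492 to 257462) lie above those of the Brg1 vehicle libraries (181456 to 201547), and the open squares lie lowest in each LPS and Dex+LPS group in the left and right panels.

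Gene by gene, 13 of 13 mitochondrial members had a negative log2 fold change in vehicle, with a median of -0.37 against -0.02 for the 79 nuclear members and 0.01 for all 12061 genes tested. In 8 of the 13, every Brg1 library lay below every control library, a pattern that 23.2% of all genes showed. Mitochondrial members come from shared precursor RNAs and were read in the same libraries. Counts of them, here and below, are therefore not counts of independent observations. Mt-Nd1, a membrane core subunit of complex I, gave 13801, 15630 and 15222 with control and 11453, 11641 and 12166 with Brg1 siRNA. Mt-Cytb, the cytochrome b of complex III, gave 11767, 13643 and 13836 against 9454, 9105 and 9987. Neither gene's groups overlapped. By limma, however, mt-Nd6 alone passed at an adjusted p under 0.05 over all genes when the spread was estimated from all 20 libraries, beside 10.8% of all genes lower and 9.39% higher in vehicle. Neither mt-Nd1, at -0.34 ± 0.18 (SE; limma adjusted p = 0.203), nor mt-Cytb, at -0.46 ± 0.16 (limma adjusted p = 0.0533), passed.

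None of the 4 libraries of the higher number series was a vehicle library. Leaving them out left every vehicle fold change as it was and changed the spread it was tested against, and 7 of 13 mitochondrial members were then lower in vehicle, beside 12.6% of all genes in that fit: mt-Nd1, mt-Nd4, mt-Nd6, mt-Cytb, mt-Co2, mt-Co3 and mt-Atp6. Their log2 fold changes ran from -0.34 for mt-Nd1 (limma adjusted p = 0.0044) to -0.72 for mt-Co2 (limma adjusted p = 0.0389). With the number series kept as a term in the fit, 8 were lower, beside 13.2% of all genes. With plain library totals the mitochondrial median was -0.41 in vehicle, where the median of all genes was -0.03.

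Under LPS the mitochondrial genes of the knockdown and control cells overlapped more. Of 13 members, 1, mt-Nd6, was lower and 0 were higher, against 15.8% and 17.3% of all genes, and the median log2 fold change was -0.18 beside -0.02 for nuclear members. Every Brg1 library lay below every control library in 1 of 13 (22.0% of all genes). Without the higher number series, 2 libraries were left in each LPS group. Mt-Co3, a core cytochrome c oxidase subunit, was then the lower member in place of mt-Nd6 (-0.30), beside 13.5% of all genes in that fit. Mt-Co3 had 34004, 38288 and 21609 with control and 27406, 19308 and 31471 with Brg1 siRNA in LPS; the lowest value of each group is the library of the higher number series.

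In Dex+LPS, 13 of 13 mitochondrial fold changes were again negative, with a median of -0.28 against -0.12 for the nuclear members. Here 1 of 13 was lower and 0 higher, with 15.3% of all genes lower and 19.0% higher, and every Brg1 library lay below every control library in 1 of 13 (13.1% of all genes). Without the higher number series mt-Nd4l turned to 0.04 and 6 were lower, beside 14.9% of all genes: mt-Nd1, mt-Nd3, mt-Nd6, mt-Cytb, mt-Co2 and mt-Co3. Mt-Co3 then fell by 0.46 on the log2 scale (limma adjusted p = 0.000956). Its values were 34689, 44514, 38951 and 25907 for control siRNA against 29271, 28896, 27379 and 18338 for Brg1 siRNA, so the groups were apart except for the replicate 4 control of the higher series.

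**Figure D2:**
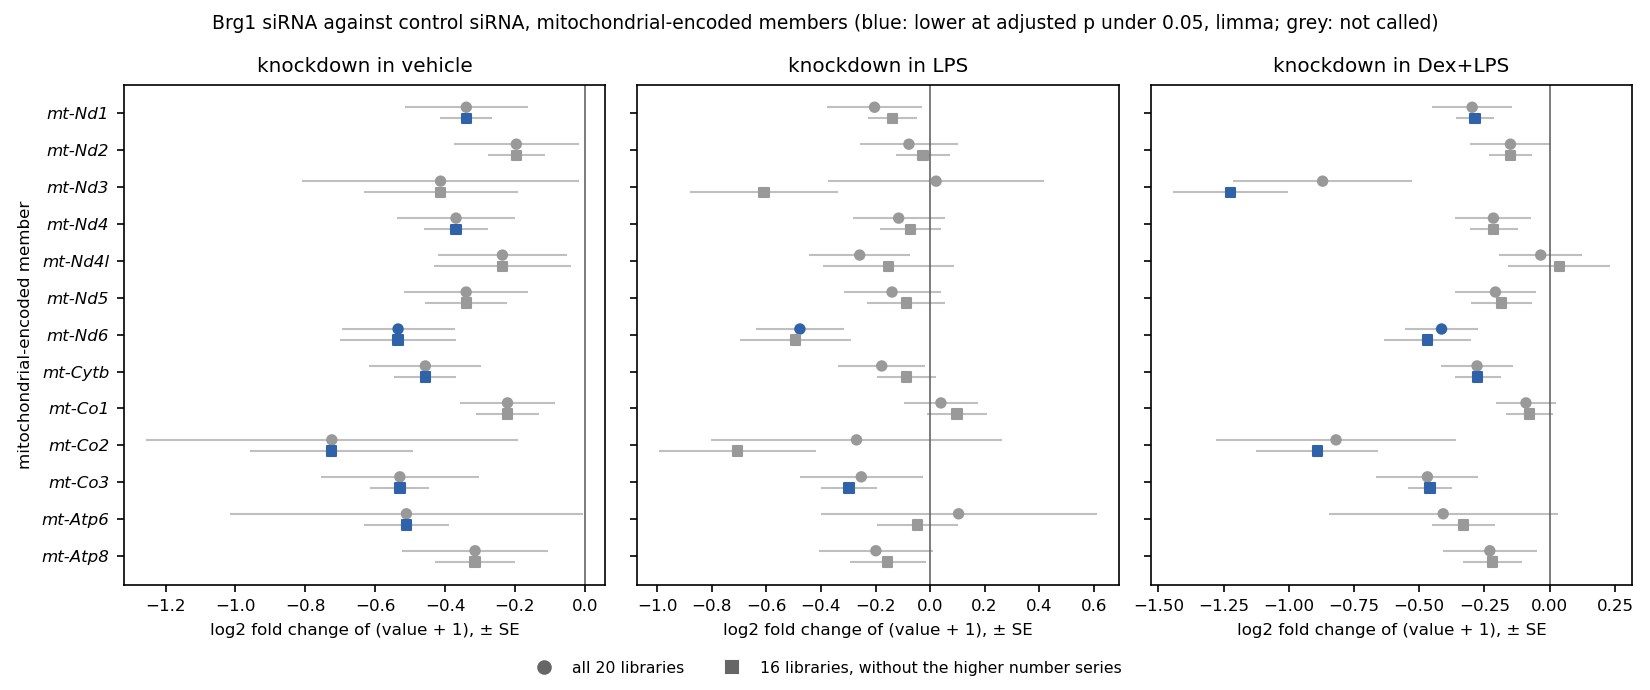
Log2 fold change (Brg1 against control siRNA, of the normalised value + 1) with its SE for the 13 mitochondrial members in vehicle, LPS and Dex+LPS, over all 20 libraries (circles) and over the 16 without the higher number series (squares); blue marks members lower at a limma adjusted p under 0.05. The vehicle estimates are the same in both fits and 7 of 13 pass in the second; the x axes differ between panels.

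Mt-Nd6 was the mitochondrial member called in each of the 3 treatments. It had 55.2, 53.0 and 69.0 with control and 40.7, 37.5 and 42.6 with Brg1 siRNA in vehicle. In LPS it had 84.6, 62.5 and 71.7 against 47.4, 52.3 and 55.7, and in Dex+LPS 54.4, 65.2, 69.2 and 49.7 against 46.9, 41.3, 47.0 and 41.6. The groups did not overlap in any treatment. Its log2 fold changes were -0.53, -0.48 and -0.41 (limma adjusted p = 0.0249, 0.0303 and 0.029). These counts are low, and the call was lost in 4 of 19 alternatives in vehicle, in 9 of 19 in LPS, where leaving out the higher number series was among them, and in 7 of 21 in Dex+LPS, where leaving out control replicate 2 was among them. Mt-Nd6 lies at chrM:13552-14070 on the minus strand (GRCm38, GENCODE M21). It overlaps the end of mt-Nd5 (chrM:11742-13565, plus strand), which had values of 8341 to 15012. With the counted strand not given, reads of the overlap cannot be told apart. The overlap is chrM:13552-13565 only, a small part of the 519 bases of mt-Nd6.

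Several mitochondrial genes share nearly all of their sequence with copies in the nuclear genome. On chromosome 1, between 24612775 and 24616197, lie the annotated pseudogenes Gm28438, Gm28437, Gm10925, Gm28661 and Gm29216, whose 31-base words were found to 97.2% to 100% in mt-Nd3, mt-Co3, mt-Atp6, mt-Co2 and mt-Co1. These copies held 7.11% to 22.4% of the mitochondrial reads with copies, and the highest shares, 22.4%, 19.1%, 17.4% and 17.2%, were in the 4 libraries of the higher number series. Mt-Co2 shows the size of the split: its own values were 21098, 23011 and 17932 in control vehicle and 10388, 13223 and 14055 in Brg1 vehicle, and together with Gm28661 they were 28610, 29741 and 29697 against 21228, 20992 and 22859. Summed in this way, mt-Co3 was lower in vehicle over all libraries (-0.54, limma adjusted p = 0.0115), and without the higher number series 9 of 13 members were lower in vehicle, 0 in LPS and 7 in Dex+LPS, beside 12.6%, 13.5% and 14.9% of all genes in that fit. The summing was chosen after seeing the data. Mt-Nd4l shares 98.9% and mt-Nd4 62.8% of their words with other genes, but no copy was summed for them. Mt-Nd1 shares no word with another gene, and mt-Cytb shares 6.55% of its words and mt-Nd6 7.36%.

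Among the nuclear subunits, 1 of 79 was higher with the knockdown in vehicle and 4 were lower, beside 9.39% and 10.8% of all genes. In LPS 4 were higher and 6 lower (17.3% and 15.8% of all genes), and in Dex+LPS 1 was higher and 15 lower (19.0% and 15.3%). Ndufb8, Ndufa3, Atp5g1 and Atp5a1 were lower in each of the 3 treatments, as was mt-Nd6. These 5 were 100% of the members lower in vehicle, 71.4% of those in LPS and 31.2% of those in Dex+LPS. How many of all genes were lower in all 3 was not counted. No member was higher in all 3. Without the higher number series the counts in LPS became 6 higher and 3 lower, beside 14.8% and 13.5% of all genes, and Atp5a1, Ndufa3 and Sdha were no longer called there.

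Ndufb8, an accessory subunit in the membrane arm of complex I, had the clearest difference. In vehicle it gave 892, 809.6 and 799 with control and 542, 547 and 542 with Brg1 siRNA. In LPS it gave 638, 725 and 724 against 415, 492 and 436, and in Dex+LPS 703, 861, 665 and 718 against 424, 497, 502 and 508. Every Brg1 library lay below every control library of its treatment. The log2 fold changes were -0.61 ± 0.10, -0.64 ± 0.10 and -0.61 ± 0.08 (SE), with limma adjusted p-values of 0.000151, 6.24e-05 and 1.86e-05, and they passed under every alternative run. The gene lies at chr19:44548572-44555440 on the minus strand (GRCm38) and overlaps the annotated gene Gm20538, which had at most 1.25 in any library.

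Atp5g1 encodes one of the proteins that form the proton-carrying c-ring of ATP synthase. It had 657, 582 and 584 with control and 473, 498 and 467 with Brg1 siRNA in vehicle, and 786, 789 and 783 against 537, 552 and 564 in LPS. In Dex+LPS it had 705, 886, 679.6 and 767 against 557, 443, 482 and 606, again without overlap. The log2 fold changes were -0.34, -0.51 and -0.54 (limma adjusted p = 0.0285, 0.00104 and 0.000143), and in vehicle the call was lost without control replicate 1, Brg1 replicate 1 or Brg1 replicate 3. Another c-ring gene, Atp5g3, did not share this: it had 1491, 1364 and 1290 against 1322, 1346 and 1216 in vehicle, which overlap. Atp5g2, which shares 40.2% of its words with other genes, ranged from 52.0 to 384 and passed in none of the 3 treatments. The pseudogene Gm10175, with 100% of its words in Atp5g2, had a mean value of 1037, so the level of Atp5g2 alone is uncertain. Summed with Gm10175, Atp5g2 had 1341, 1206 and 1318 in control vehicle against 1319.5, 1460 and 1418 in Brg1 vehicle.

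Ndufa3, a small accessory subunit of complex I, and Atp5a1, the alpha subunit of the catalytic head of ATP synthase, fell by less. Ndufa3 had 614, 511 and 508 with control and 449, 415 and 452 with Brg1 siRNA in vehicle, and its log2 fold changes were -0.31, -0.29 and -0.42 (limma adjusted p = 0.0474, 0.0419 and 0.00158). Its groups were apart in each treatment, but the vehicle call was lost without any 1 of the 6 vehicle libraries and without the higher number series. Atp5a1 had 6701, 6232 and 6250 against 5523, 5785 and 5623 in vehicle, with log2 fold changes of -0.18, -0.16 and -0.25. Atpif1, the inhibitor protein of ATP synthase and no member, was lower as well, by -0.50, -0.46 and -0.63.

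**Figure D3:**
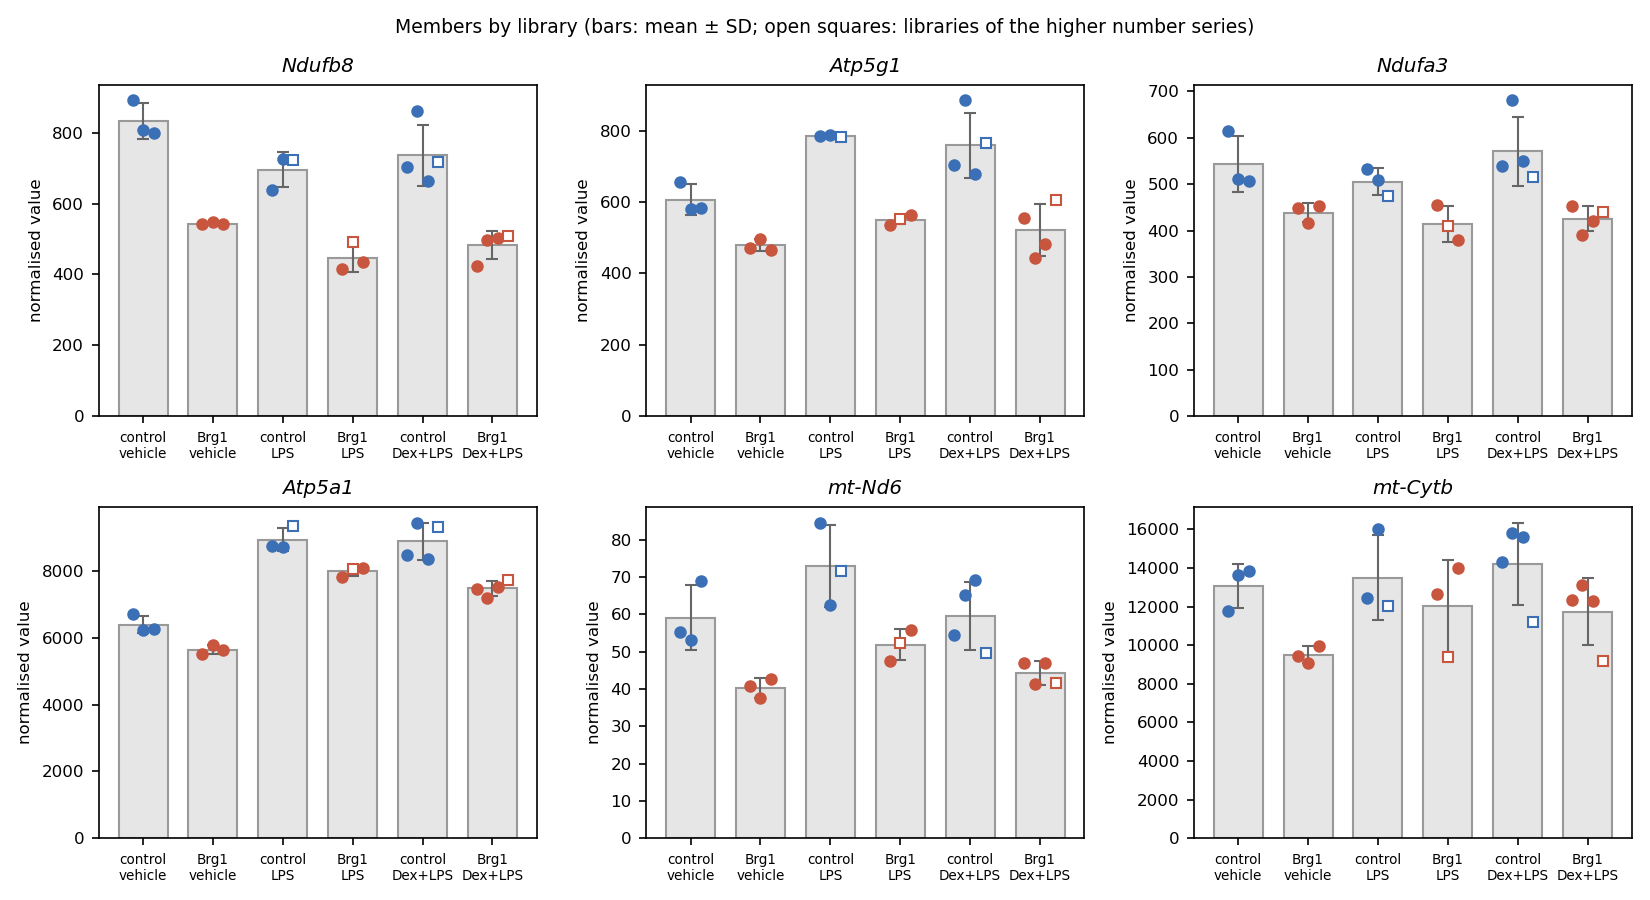
Normalised values of Ndufb8, Atp5g1, Ndufa3, Atp5a1, mt-Nd6 and mt-Cytb in each library of the 6 groups; bars are means with SD, blue marks control and red marks Brg1 siRNA, and open squares are the libraries of the higher number series. For the first 5 genes each red group lies below the blue group beside it in all 3 treatments, while mt-Cytb is apart in vehicle and overlaps in LPS and Dex+LPS.

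The promoter windows of 3 of these genes are shown because the genes moved together. RefSeq windows (GRCm38.p6, 250 bases before to 50 after the start, 5′ to 3′ on the gene's strand) matched 66 of the 83 nuclear members by symbol. Capitals mark the YY1 core AAGATGG, found on the same strand close to the start in Ndufb8 (chr19:44555393-44555692, minus strand) and Ndufa3 (chr7:3617123-3617422, plus strand). The window of Atp5g1 (chr11:96075582-96075881, minus strand) holds none of the 6 motifs searched. Those of Ndufb8 and Ndufa3 also hold the SP1 core GGGCGG on 1 strand or the other, left unmarked.
Ndufb8: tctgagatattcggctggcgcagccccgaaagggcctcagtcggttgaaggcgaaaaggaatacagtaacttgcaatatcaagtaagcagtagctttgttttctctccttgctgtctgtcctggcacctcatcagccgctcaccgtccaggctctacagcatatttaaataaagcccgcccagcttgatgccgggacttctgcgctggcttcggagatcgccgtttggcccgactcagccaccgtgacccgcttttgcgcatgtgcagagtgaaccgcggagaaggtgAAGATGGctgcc
Ndufa3: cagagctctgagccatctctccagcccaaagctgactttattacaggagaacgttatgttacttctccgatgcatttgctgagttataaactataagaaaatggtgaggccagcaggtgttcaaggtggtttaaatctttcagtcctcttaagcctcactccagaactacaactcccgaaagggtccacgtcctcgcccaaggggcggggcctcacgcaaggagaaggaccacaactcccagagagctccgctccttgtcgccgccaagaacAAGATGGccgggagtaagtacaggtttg
Atp5g1: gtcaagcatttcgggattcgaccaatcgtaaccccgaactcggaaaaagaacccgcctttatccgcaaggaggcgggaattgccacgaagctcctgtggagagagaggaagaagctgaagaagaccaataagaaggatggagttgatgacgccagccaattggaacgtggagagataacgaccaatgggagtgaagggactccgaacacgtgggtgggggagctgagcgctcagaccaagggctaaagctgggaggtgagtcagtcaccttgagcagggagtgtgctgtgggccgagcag
Searched on both strands, the YY1 core was in 11 of the 66 matched members (16.7%) and in 6.34% of all 32851 windows. The other cores of factors known for respiratory genes were the NRF1 core GCATGCGC (15.2% of members against 2.71% of all windows), the ETS core CCGGAAG bound by GABPA (25.8% against 8.86%), the estrogen-related receptor core TCAAGGTCA (3.03% against 0.423%) and the SP1 core GGGCGG (40.9% against 35.7%). A match describes letters and is no evidence of binding.

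The remaining knockdown calls differed by treatment. Sdhd, the membrane anchor of complex II, was higher in vehicle, with 1456, 1346 and 1299 against 1693, 1567 and 1630 (log2 fold change 0.25 ± 0.07, limma adjusted p = 0.0146). The Sdhd call was lost without control replicate 2, control replicate 3 or Brg1 replicate 1 of the vehicle groups (largest limma adjusted p = 0.0708). In LPS the higher members were the complex I accessory subunits Ndufa6 (0.45) and Ndufa1 (0.40), Cox7a2l, a factor of respiratory supercomplexes (0.31), and Sdhb, the iron-sulfur subunit of complex II (0.26). With plain library totals Ndufa1, Cox7a2l and Sdhb no longer passed there (Sdhb 0.12, limma adjusted p = 0.242), and Ndufa1 was also lost without control LPS replicate 1. Ndufa6 had 368, 384 and 388 with control and 509.9, 496 and 550.1 with Brg1 siRNA in LPS, groups apart, while in vehicle its values overlapped. In Dex+LPS the lower members included the electron-input subunit Ndufv2 (-0.48), Ndufs4 (-0.53) and Ndufs1 (-0.16) of complex I, and Sdha (-0.17), the flavoprotein of complex II. Ndufs4, needed to stabilise complex I, gave 121, 124, 119 and 127 against 91.5, 82.5, 78.0 and 87.7. Ndufa4 (-2.83) also passed there, on values of 0 to 16.03. Cox7a1 (0.74), on values of 5.09 to 19.2, was lost in 14 of 21 alternatives, among them edgeR, DESeq2, plain totals and leaving out control replicate 2 (limma adjusted p = 0.0631).

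The 15 nuclear members lower in Dex+LPS rested in part on control replicate 2, the library in which nuclear members were high. Without it 9 were lower, all 9 among the 15, and 3 were higher, beside 14.5% and 17.8% of all genes; the nuclear median moved from -0.12 to -0.03. The members no longer called were Atp5b, Atp5j2, Cox6a1, Cox6c, Ndufa13 and Ndufc2. With plain library totals 28 nuclear members were lower and 0 higher, beside 23.6% and 13.7% of all genes, with a median of -0.22, where the median of all genes moved to -0.09.

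The response to 6 h of LPS is given by complex. Relative to the size factors of the deposited values, 23 of 79 were higher and 11 lower with control siRNA, beside 36.0% and 37.0% of all genes, and 25 higher and 8 lower with Brg1 siRNA, beside 35.4% and 37.4%. In complex V, 9 of 17 rose and 1 fell with control siRNA, with a median log2 fold change of 0.39. In complex III, 3 of 9 rose and 0 fell (0.35), and in complex IV 6 of 12 rose and 1 fell (0.25). In complex I, 5 of 37 rose and 7 fell, with a median of 0.00, and in complex II 2 of 4 fell (-0.16). With Brg1 siRNA the medians were -0.09, -0.17, 0.34, 0.36 and 0.39 for complexes I to V. The difference between complexes was not tested.

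These directions depend on the scaling. With plain library totals the median of all genes became -0.61 with control and -0.72 with Brg1 siRNA; 2 nuclear members were then higher and 46 lower with control siRNA, beside 20.2% and 56.8% of all genes, and 1 higher and 55 lower with Brg1 siRNA, beside 18.4% and 60.8%. The medians of complexes I to V were then -0.58, -0.75, -0.23, -0.33 and -0.19 with control siRNA. A change of scaling shifts all genes nearly alike, so it leaves the distances between complexes much as they were.

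Atp5b rose in LPS from 8386, 7212 and 7272 to 14186, 13744 and 13276 with control siRNA, a log2 fold change of 0.85 ± 0.08 (limma adjusted p = 2.76e-08). In the knockdown arm it rose from 6728, 6982 and 7327 to 12592, 11726 and 12490 (0.81 ± 0.08). Cox5a, a nuclear subunit of cytochrome c oxidase, rose from 1342, 1171 and 1119 to 2397, 2154 and 2030 (0.86 ± 0.12) and from 997, 957 and 904 to 1989.9, 1758 and 2170 (1.04 ± 0.12). The vehicle and LPS values of both genes were far apart in both arms, and with plain totals Atp5b no longer passed with Brg1 siRNA. Altogether 19 members rose with both siRNAs, 82.6% of the rises with control and 76% of those with Brg1 siRNA. The same overlap over all genes was not counted. Among the 19 were Atp5a1, Atp5g3, Atp5md, Uqcrc1 and Uqcrfs1, of which none passed as higher with plain totals. Uqcrc1 in both arms and Atp5a1 with Brg1 siRNA were then lower. Uqcrfs1, the Rieske iron-sulfur protein of complex III, went from 865, 853 and 863 to 1185, 1190.5 and 1203 with control siRNA, and with plain totals its log2 fold change was -0.11 and did not pass.

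Cox6b1, a subunit of cytochrome c oxidase, was among the 3 largest rises called with control siRNA. It went from 907, 626 and 1061 to 1568, 1525 and 1779, a log2 fold change of 0.94 ± 0.27 (limma adjusted p = 0.00496), without overlap, and with plain totals it no longer passed (0.36). With Brg1 siRNA Cox6b1 did not pass (0.52, limma adjusted p = 0.0943).

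Members that fell with both siRNAs were 6: Ndufb8, Ndufb10, Ndufb11, Ndufs3, Ndufv3 and Sdhc, of which 5 belong to complex I. How many of all genes fell with both was not counted. Ndufs3, a core subunit of the peripheral arm of complex I, fell from 676, 651 and 589 to 449.8, 452 and 437 with control siRNA (-0.51, limma adjusted p = 6.36e-06) and from 636, 618 and 586 to 455, 444 and 505 with Brg1 siRNA (-0.39). Ndufb11, a membrane-arm subunit, fell by 0.58 and 0.33 on the log2 scale and Ndufv3 by 0.56 and 0.46. Sdhc, the other membrane anchor of complex II, went from 1833, 1753 and 1507 to 1366, 1157 and 1251 with control siRNA, without overlap. Ndufa6 had the largest fall called with control siRNA, from 678, 581 and 626 to 368, 384 and 388 (-0.72 ± 0.12, limma adjusted p = 3.27e-05), without overlap. With Brg1 siRNA Ndufa6 did not pass by the deposited size factors (-0.27, limma adjusted p = 0.0534).

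Of the mitochondrial members 0 passed in LPS with either siRNA, and their medians were -0.03 with control and 0.16 with Brg1 siRNA. Without the higher number series, which left 2 LPS libraries per arm, 8 of 13 were higher with Brg1 siRNA, beside 35.7% of all genes. They ran from mt-Nd2 (0.22) to mt-Cytb (0.49, limma adjusted p = 0.000541). With control siRNA mt-Nd3 was then higher and mt-Atp6 lower, beside 35.3% and 36.3% of all genes. With plain totals over all libraries 10 of 13 were lower in each arm and 0 higher, beside 56.8% and 60.8% of all genes lower. As a share of all reads the mitochondrial members went from 2.02% ± 0.14 to 1.196% ± 0.242 with control siRNA (SD, n = 3 each), and the nuclear members from 0.602% ± 0.040 to 0.485% ± 0.011. The ratio of the sums was 2.48 ± 0.56 in control LPS and 2.39 ± 0.46 in Brg1 LPS. Without the higher number series it was 2.75 ± 0.41 and 2.66 ± 0.06 (SD, n = 2 each).

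**Figure D4:**
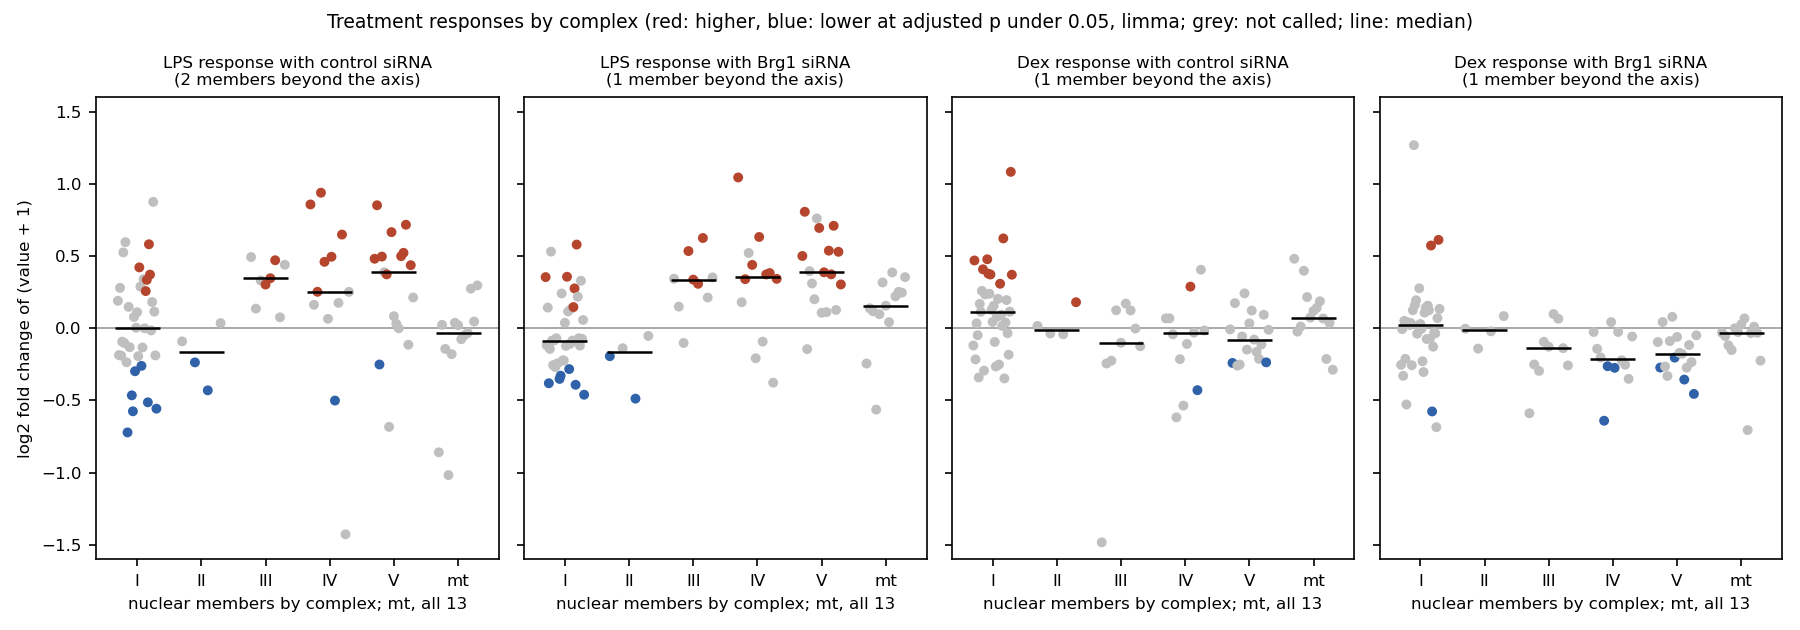
Log2 fold changes on adding LPS to vehicle and on adding dexamethasone to LPS, for each nuclear member by complex and for the 13 mitochondrial members, with control and Brg1 siRNA; red and blue mark members higher and lower at a limma adjusted p under 0.05, and the line is the median. The medians of complexes III to V lie above that of complex I in the LPS panels and below it in the Dex panels, a difference that was not tested; with plain library totals the medians of all 5 complexes are below 0 in LPS and above 0 in Dex.

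A single member responded to LPS differently in the 2 arms. Cox7a2l went from 3453, 3083 and 3187 to 2357, 2180 and 2326 with control siRNA and from 3063, 3057 and 2958 to 2775, 2945 and 2794 with Brg1 siRNA. The Brg1 libraries lay above the control libraries in LPS and below them in vehicle, where the difference did not pass (-0.10, limma adjusted p = 0.399). The test of the difference (interaction) gave 0.41 ± 0.10 (limma adjusted p = 0.0124), beside 6.39% of all genes with a higher and 5.05% with a lower interaction. The call was lost with plain library totals, with totals without the mitochondrial genes and without the higher number series (largest limma adjusted p = 0.0616). For Ndufa6, whose knockdown difference passed in LPS and not in vehicle, the interaction did not pass (0.45, limma adjusted p = 0.103).

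Dex+LPS was compared with LPS alone, so the Dex and LPS responses of an arm share their LPS libraries, and both share libraries with the knockdown comparisons. With control siRNA 11 nuclear members were higher and 3 lower, beside 23.4% and 25.2% of all genes, and with Brg1 siRNA 2 were higher and 8 lower, beside 21.3% and 23.0%. Of the 11, 9 belong to complex I, of which 0 fell (median 0.12), while complex V had 2 lower (median -0.08). With Brg1 siRNA complex I had 2 higher and 1 lower (0.02), complex IV 3 lower (-0.21) and complex V 4 lower (-0.18). Without control Dex+LPS replicate 2 the control arm gave 8 higher and 10 lower, beside 23.2% and 25.5% of all genes, of which complex I held 7 higher and complex V 7 lower. With plain library totals 46 and 37 were higher in the 2 arms and 0 lower, beside 43.7% and 44.7% of all genes higher and 13.7% and 10.2% lower, where the median of all genes moved to 0.28 and 0.31.

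Ndufv2, the subunit of complex I that takes part in the entry of electrons from NADH, had the largest rise among the members called. It went from 835, 854 and 726 in LPS to 1685, 2260, 1714 and 1289 in Dex+LPS with control siRNA, a log2 fold change of 1.08 ± 0.14 (limma adjusted p = 4.3e-06). With Brg1 siRNA it went from 845, 707 and 845 to 1291, 1275, 1344 and 993 (0.61 ± 0.14, limma adjusted p = 0.00162). In neither arm did the groups overlap, and the lowest Dex+LPS value of each arm was its library of the higher number series. The difference between the arms was -0.47 and did not pass (limma adjusted p = 0.238).

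Ndufs3, which LPS lowered, rose again under Dex+LPS to 663, 764, 660.3 and 669.5 with control siRNA (0.62 ± 0.07, limma adjusted p = 7.12e-07) and to 731, 683, 660.4 and 709 with Brg1 siRNA (0.57 ± 0.07). These values lie above every LPS library of their arm. Ndufv2 and Ndufs3 were the 2 members higher in both arms, 18.2% of the rises with control and 100% of those with Brg1 siRNA. This overlap too was not counted over all genes. Ndufb10, a further membrane-arm subunit, rose with control siRNA from 324, 340.1 and 352 to 434, 589, 435 and 445 (0.48, limma adjusted p = 0.000485) and went from 394, 369 and 401 to 452, 410.3, 415 and 461 with Brg1 siRNA, which did not pass (0.16).

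Atp5b and Atp5o, the oligomycin-sensitivity subunit in the stalk of ATP synthase, were lower in both arms by the deposited size factors, with control calls that several alternatives lost. By plain totals neither passed: the control arm gave 0.06 for both, and the Brg1 arm 0.06 for Atp5b and -0.12 for Atp5o. Atp5b went to 11085, 13956, 11037 and 10687 with control siRNA (-0.24) and to 10354, 9933, 10217 and 10113 with Brg1 siRNA (-0.27). The control library at 13956 was replicate 2. In the control arm the call of Atp5b was lost in 6 of 20 alternatives, edgeR, TMM scaling and leaving out the higher number series (limma adjusted p = 0.062) among them, and it turned in sign in 2, both with library totals. Atp5o went from 1281, 1282 and 1251 to 1000.4, 1359, 1019 and 978 with control siRNA (-0.24, limma adjusted p = 0.028) and from 1340.3, 1276 and 1315 to 917, 962, 1002 and 942 with Brg1 siRNA (-0.46). Its control values overlapped, and the call was lost in 12 of 20 alternatives and turned in sign in 2. Among those that lost it were edgeR and leaving out the higher number series (limma adjusted p = 0.137). The control library at 1359 was replicate 2. Without it the control fold changes were -0.35 for Atp5o and -0.33 for Atp5b (limma adjusted p = 1.3e-05 and 7.12e-05). Cox7c, a small subunit of cytochrome c oxidase, fell by 0.43 on the log2 scale with control siRNA, and Ndufs4 by 0.58 and Cox6b1 by 0.64 with Brg1 siRNA. Cox7c no longer passed with library totals or without control LPS replicate 3, and Ndufs4 no longer passed with library totals or without the higher number series (-0.43, limma adjusted p = 0.0582). For Cox6b1 the groups overlapped, the limma adjusted p was 0.04996 and the call was lost in 13 of 20 alternatives.

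**Figure D5:**
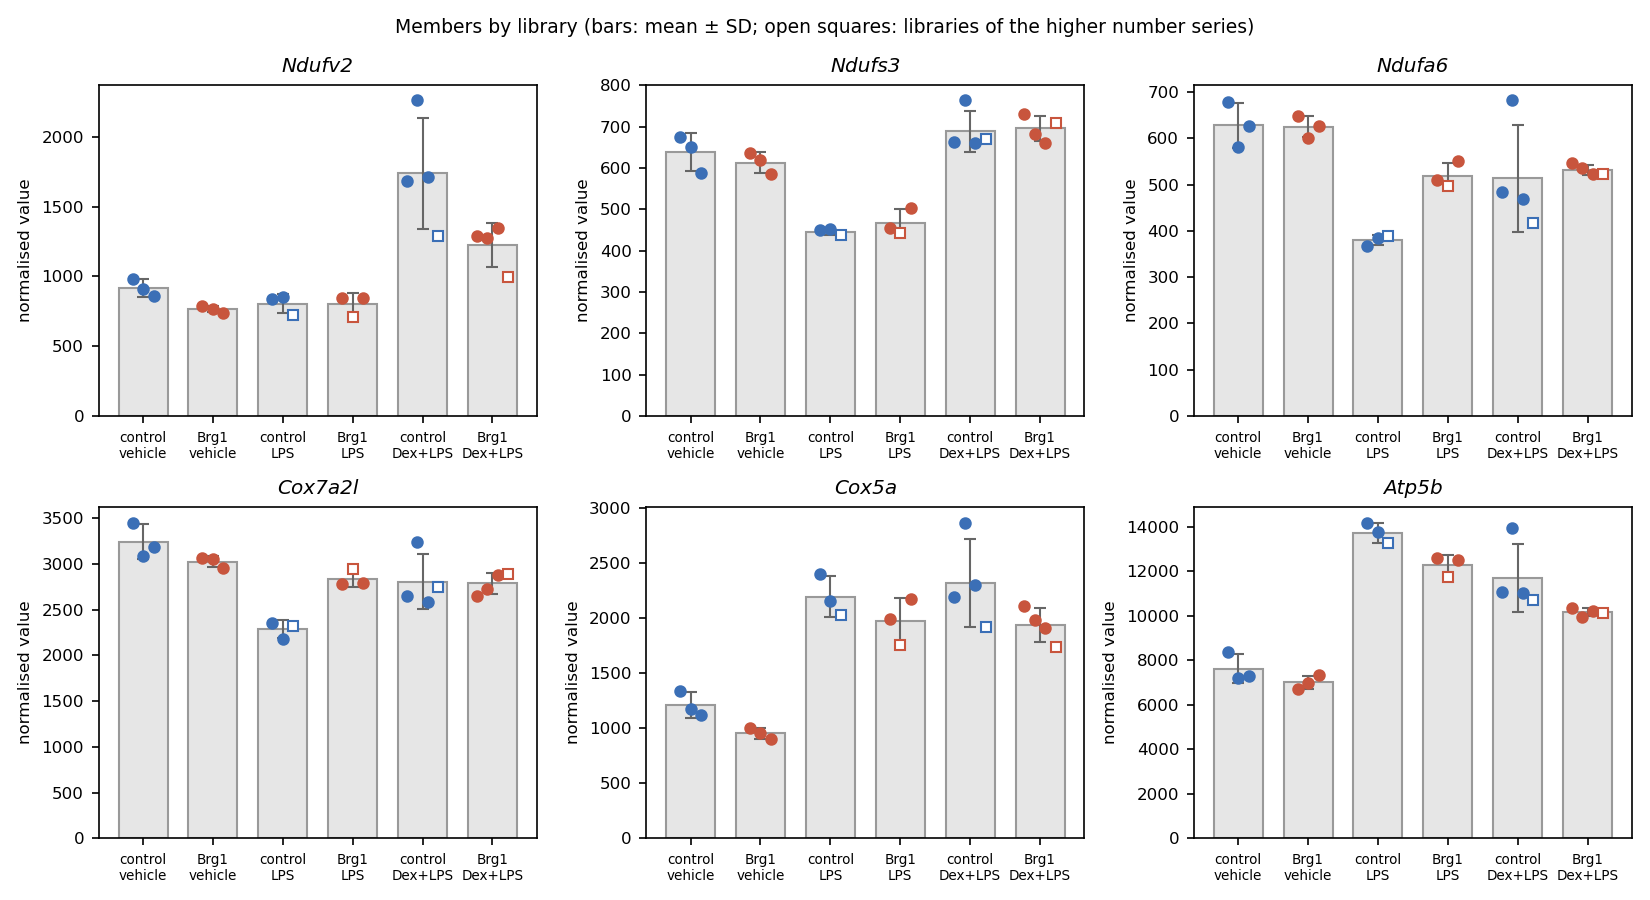
Normalised values of Ndufv2, Ndufs3, Ndufa6, Cox7a2l, Cox5a and Atp5b in each library of the 6 groups; bars are means with SD, blue marks control and red marks Brg1 siRNA, and open squares are the libraries of the higher number series. Ndufs3 is lower in LPS than in vehicle and Dex+LPS in both arms, and Atp5b and Cox5a are higher in LPS than in vehicle; with plain library totals the fall of Atp5b under Dex+LPS becomes a difference of 0.06 in the control arm.

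The windows of Ndufv2 and Ndufs3 are shown as the 2 members higher with dexamethasone in both arms. Capitals mark a match to the 6-base core AGAACA of the glucocorticoid receptor element, a motif chosen after seeing the data: AGAACA on the same strand in Ndufv2 (chr17:66101510-66101809, minus strand) and its reverse complement TGTTCT close to the start in Ndufs3 (chr2:90904672-90904971, minus strand).
Ndufv2: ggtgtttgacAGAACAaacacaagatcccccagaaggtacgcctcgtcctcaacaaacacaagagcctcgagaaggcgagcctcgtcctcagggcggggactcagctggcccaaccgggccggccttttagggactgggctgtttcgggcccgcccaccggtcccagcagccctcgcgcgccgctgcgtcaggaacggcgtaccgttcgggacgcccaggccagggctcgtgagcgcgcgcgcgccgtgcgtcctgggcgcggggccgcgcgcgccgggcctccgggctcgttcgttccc
Ndufs3: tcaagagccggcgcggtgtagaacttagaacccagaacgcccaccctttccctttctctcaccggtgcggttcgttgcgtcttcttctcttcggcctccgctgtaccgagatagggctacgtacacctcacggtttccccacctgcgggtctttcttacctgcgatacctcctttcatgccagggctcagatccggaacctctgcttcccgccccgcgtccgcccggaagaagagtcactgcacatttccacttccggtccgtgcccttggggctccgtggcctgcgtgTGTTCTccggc
Counted as for the other motifs, this core was in 10 of the 66 matched members (15.2%) and in 19% of all windows. A match is thus common in windows of this length. The window of Ndufa3 also holds it. Unmarked in the windows above are the SP1 core, held by Ndufv2 and Ndufs3, and the ETS core, held by Ndufs3.

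No mitochondrial member passed in the Dex response of either arm, with medians of 0.07 and -0.03. Without the higher number series mt-Nd3 was lower with Brg1 siRNA (-0.88), beside 22.1% of all genes. With plain totals 6 of 13 were higher with control and 1 with Brg1 siRNA, beside 43.7% and 44.7% of all genes. The ratio of the mitochondrial to the nuclear sum was 2.68 ± 0.50 in control and 2.48 ± 0.47 in Brg1 Dex+LPS (SD, n = 4 each), and 2.89 and 2.71 without the higher number series. In the test of whether the knockdown changed the Dex response 0 members passed by limma, beside 2.75% and 1.22% of all genes higher and lower. At an unadjusted p under 0.05 there were 6 of 79 nuclear and 0 of 13 mitochondrial members, beside 16.2% of all genes; DESeq2 called 1 member and edgeR 0.

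Several subunits exist as isoforms that differ between tissues, and the muscle or restricted forms were near the detection limit. Cox6a2 had normalised values of 0 to 11.6, against 804 to 1331 for Cox6a1. Cox7a1 had 5.09 to 21.2, against 862 to 1523 for Cox7a2. Cox8a had 877 to 1511. Ndufa4, which is not one of these restricted forms, was also low, at 0 to 16.03. Outside the symbols chosen, Cox4i1 had 2109 to 3698 and its lung-type partner Cox4i2 at most 2.49. Ndufa9, an accessory subunit of complex I, was at 0 in some libraries and at up to 389 in others of the same group, and its fold changes carry no weight.

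Cycs, the cytochrome c that carries electrons between complexes III and IV, rose in LPS from 577, 529 and 595 to 1576, 1602 and 1249 with control siRNA, a log2 fold change of 1.37 ± 0.16, and by 1.48 with Brg1 siRNA. By the deposited size factors, of 15 assembly factors of complex I tested, 0 rose and 5 fell in LPS in the control arm, beside 36.0% and 37.0% of all genes, and 0 rose and 9 fell in the knockdown arm, beside 35.4% and 37.4%. In the Dex response 8 rose and 1 fell (23.4% and 25.2% of all genes), and 7 rose and 0 fell (21.3% and 23.0%). Ndufaf7, a methyltransferase that acts on a complex I subunit, had log2 fold changes of -2.51 and -1.93 in LPS and 1.68 and 1.66 in the Dex response; Tmem126b, another assembly factor, had -1.69 and -1.73 in LPS.

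The counts of the other lists stand beside the shares of all genes just given for the LPS and Dex responses, and for the knockdown beside 9.39% higher and 10.8% lower in vehicle, 17.3% and 15.8% in LPS, and 19.0% and 15.3% in Dex+LPS. Genes for the upkeep and transcription of mitochondrial DNA, 17 tested, gave 1 higher and 11 lower in LPS in the control arm, 1 and 12 in the knockdown arm, and 8 higher and 0 lower in the Dex response of each arm. Under knockdown in vehicle 0 of these 17 passed in either direction. Polrmt, the mitochondrial RNA polymerase, was higher with Brg1 siRNA in LPS (0.65), and Tfam, the packaging and initiation factor of mitochondrial DNA, was lower there (-0.44). Of 78 proteins of the mitochondrial ribosome, 25 were higher and 21 lower in LPS and 24 higher and 5 lower in the Dex response with control siRNA. Of 18 genes for mitochondrial RNA processing and stability, 2 were higher and 1 lower with the knockdown in vehicle, 1 and 5 in LPS, and 0 and 3 in Dex+LPS. Of 32 assembly factors of complexes II to V, 7 were higher and 9 lower in LPS and 8 higher and 2 lower in the Dex response with control siRNA. Of 22 genes of the citrate cycle and pyruvate dehydrogenase, 2 were higher and 5 lower with the knockdown in vehicle, 1 and 4 in LPS, and 0 and 6 in Dex+LPS. Of 13 nuclear regulators of respiratory genes, 0 were higher and 3, 4 and 4 lower after knockdown in vehicle, in LPS and in Dex+LPS.

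In the authors' deposited table, at an adjusted p under 0.05, the knockdown comparisons counted 1 higher and 5 lower nuclear members in vehicle, 4 and 6 in LPS and 0 and 17 in Dex+LPS, with 2, 0 and 1 mitochondrial members lower. The authors' deposited table counted 25 higher and 11 lower nuclear members in the LPS response of the control arm, and 25 and 8 in the knockdown arm. The share of all genes called in that table was not counted, so these counts do not set the members apart from other genes.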

How the data were processed

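The deposited table lists 17787 genes and holds, for each of 20 libraries, normalised signal (by its values, reads over a library's size factor), and the authors' own log2 fold changes and p-values for 7 comparisons. The submitters' processing notes name R 4.1.0, Salmon 1.4.0, DESeq2 and DESeq, and as builds GRCm38.p6 and mm10. Whole reads were recovered from the steps of each library: at a tolerance of 0.01 reads, 99.95% of the nonzero values came out whole.

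Members were tested in R 4.3.3 with limma 3.58.1 (trend) on log2(value + 1), on which scale fold changes of low genes are understated. A single fit held all 6 groups and the 12061 genes with a value of at least 10 in at least 3 libraries, with Benjamini-Hochberg adjustment over all of them at 0.05. It was tested on simulated data. EdgeR's quasi-likelihood test (edgeR 4.0.16) on the recovered reads called 2503 genes in vehicle, 3868 in LPS and 4156 in Dex+LPS for the knockdown, and DESeq2 1.42.0 was a further alternative. Other alternatives changed the pseudocount, filter, scaling, groups in the fit, number series and replicates.

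The members and gene lists were chosen with earlier results of these data known. Named were all mitochondrial members, the 3 largest rises and falls called per comparison (mean value of at least 10 in a group), and the isoform pairs; other members were named after their values were seen. Shared sequence was the percent of a gene's 31-base words found in other GENCODE M21 transcripts. All 20 libraries were used.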

Additional observations from a re-analysis of the deposited data

Results flagged for a closer look

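In the 2 groups of 4 libraries, a library was flagged by its gap to the nearest other value, as a share of the group's range. That share had to exceed Dixon's 95% critical value, which chance alone does in about 1 in 20 groups. Not every flagged member is named here. In control Dex+LPS replicate 2 this held for Atp5b (13956), Atp5o (1359), Ndufb10 (588.9), Ndufs3 (764.1) and Sdhd (1786), and for the nuclear members' share of all reads (0.6819%). Over all members tested, 12 of 79 nuclear members (15.19%) stood high in that library, against 1.741% of all genes.

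In Brg1 Dex+LPS replicate 4, a library of the higher number series, mt-Atp8 (3684), mt-Nd1 (9998) and mt-Nd2 (5957) stood low and Ndufa4 (2.77) high. There 8 of 79 nuclear members (10.13%) were high, against 2.935% of all genes. Low were 3 of 13 mitochondrial members (23.08%) and 1 of 79 nuclear members (1.266%), against 1.625% of all genes. In control Dex+LPS replicate 4, 2 of 79 nuclear members (2.532%) were high, against 1.691% of all genes. Ndufb8 was low in Brg1 Dex+LPS replicate 1 (424.4), and mt-Nd4l was high in Brg1 Dex+LPS replicate 2 (1718).

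The LPS response of Cox7a2l differed between the arms by 0.41 on the log2 scale in the test of the interaction.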

How the results depend on the processing

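Counts of members called moved by over 1.5 times as follows, with the cause not tested. For LPS and Dex with plain totals, the shares of all genes called were given above. A count with no such share cannot be told from a fit that calls more or fewer of all genes. Knockdown in vehicle (6): 18 with only the groups compared in the fit, 14 without the higher number series, 17 with it as a term. The count was 16 without the series and with copies summed. Of all genes, 9.39% were higher and 10.8% lower in the main fit. These shares were 10.6% and 12.6% without the series, with or without copies summed, and 11.5% and 13.2% with the term. Knockdown in Dex+LPS (17): 33 with plain totals, 34 with totals without mt- genes, 7 with only the groups compared, and 29 with the series term. Plain totals called 13.7% of all genes higher and 23.6% lower there, against 19.0% and 15.3% in the main fit. LPS response, control (34): 58 with either total and 22 without members that share 10% of their words. Like the summing of copies, that setting was chosen after seeing the data. It takes members out of the count and changes no test, so its counts are of fewer members. LPS response, Brg1 (33): 66 and 67 with the totals. Dex response, control (14): 52 with either total, 9 with only the groups compared and 8 without sharing members. Dex response, Brg1 (10): 38 with either total. LPS interaction (1): 2 with only the groups compared, 3 with the series term, 2 with copies summed and without the series, 0 without sharing members. The 1 member, Cox7a2l, shares 16.6% of its words and was itself left out. Dex interaction (0): 1 with DESeq2, the series term or copies summed. The ratio in Brg1 vehicle was 3.03 with copies summed (2.72 without), and Atp5b and Atp5o in the control Dex response turned to 0.0576 and 0.0615 with plain totals and 0.0635 and 0.0674 with totals without mt- genes.

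Leaving out 1 library gave 1 to 4 members for the knockdown in vehicle (1 without Brg1 replicate 1, 3 without control replicate 1 or 3), 8 to 10 in LPS and 10 to 28 in Dex+LPS (10 without Brg1 replicate 2 or 3, 28 without control replicate 4). It gave 30 to 38 and 27 to 32 for the LPS responses, 10 to 18 and 6 to 16 for the Dex responses (6 without Brg1 Dex+LPS replicate 2, 16 without replicate 4), and 1 and 0 to 1 for the interactions (1 without control Dex+LPS replicate 3). With the replicate number as a block, a number the samples share and no more (same-numbered libraries correlated at -0.166 to 0.0787, and at 0.406 for the replicate 4 pair of Dex+LPS, both of the higher series), the counts were 9, 12 and 20 for the knockdown, 43 and 38 for LPS, 25 and 18 for Dex, and 1 and 0 for the interactions. No share of all genes stands beside the counts of this paragraph, so they do not set the members apart from other genes. Low counts (mt-Nd6, Ndufa4, Cox7a1) limit those members, and shared sequence limits mt-Co1, mt-Co2, mt-Co3, mt-Atp6, mt-Nd3, mt-Nd4, mt-Nd4l and Atp5g2.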
